A study of Mus musculus with 8 samples.

Results

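Th17 cells and Th1 cells that both lacked Tet2 were compared gene by gene on microarrays: 2 arrays of Th17 Tet2-/- cells against 2 arrays of Th1 Tet2-/- cells. The members are all autosomal genes measured by a probeset with 1 gene symbol, each gene read from its probeset with the highest mean over the 8 arrays of the series. This gave 19163 of 19938 genes; the others lie on the X or Y chromosome or on no numbered chromosome. The remaining 4 arrays are the matching wild-type cells, 2 of Th17 and 2 of Th1, and are used here beside the Tet2-deficient values. All mice were C57BL/6. Naive CD4+ T cells, sorted as CD25-CD62LhighCD44low from spleen and lymph node, were stimulated through CD3 and CD28. In Th1 cultures IL-4 was blocked by an antibody, IL-2 was added at 30 U/ml and IL-12 at 10 ng/ml. Th17 cultures received 0.5 ng/ml TGF-β1 and 10 ng/ml IL-6 with antibodies against IFN-γ and IL-4. The labels do not settle if these Th17 cultures also had IL-1β or IL-23. The 2 groups therefore differ in added cytokines and in blocked IFN-γ, and the agents and the cell lineage cannot be told apart. The Tet2 deletion is described only as Tet2-/-, so which exons are missing stays unstated. The arrays of a group are named biological replicates, but no label says that they came from separate mice or cultures. The p-values thus measure the spread between these samples, which may be technical, although the 2 Th17 Tet2-/- arrays differ in sex-linked transcripts, as given below.

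Th1 and Th17 cells are helper T cells that arise from the same naive precursor. IL-12 acts through STAT4 and the transcription factor T-bet (Tbx21) to give Th1 cells, which secrete IFN-γ. TGF-β with IL-6 acts through STAT3 and nuclear receptors such as RORα to give Th17 cells, which secrete IL-17A and IL-17F and respond to IL-23. Tet2 oxidises 5-methylcytosine, a step in active DNA demethylation, and DNA methylation at cytokine genes changes as helper T cells differentiate.

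The promoters of some genes the comparison turned on hold short motifs of the factors named above, so their sequences are shown before the values; they were chosen after the values were seen. RefSeq promoter windows (GRCm38.p6) were matched by symbol for 15007 of the 19163 genes, and only the 250 bases before the start are used. AGGTCA, a nuclear receptor half-site that RORα binds, was searched on both strands. It lay in 14.4% of all genes with a window, in 14.8% of those higher in Th17 cells and in 11.9% of those lower. Among the 12 called Th17 genes with a window it lay in 5, and 3 of these are printed, on the strand of the gene, with the match in capitals. The Il17a window is chr1:20730655-20730904, the Il17f window chr1:20784271-20784520 and the Il23r window chr6:67491856-67492105. The matches began 120 bases before the start of Il17a, 58 bases before that of Il17f, and 229 and 66 bases before that of Il23r.
Il17a: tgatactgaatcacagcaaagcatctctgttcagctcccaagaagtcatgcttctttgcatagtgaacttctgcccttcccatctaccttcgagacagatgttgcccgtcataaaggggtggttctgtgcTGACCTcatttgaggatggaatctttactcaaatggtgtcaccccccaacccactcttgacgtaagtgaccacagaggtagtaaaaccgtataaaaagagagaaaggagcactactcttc
Il17f: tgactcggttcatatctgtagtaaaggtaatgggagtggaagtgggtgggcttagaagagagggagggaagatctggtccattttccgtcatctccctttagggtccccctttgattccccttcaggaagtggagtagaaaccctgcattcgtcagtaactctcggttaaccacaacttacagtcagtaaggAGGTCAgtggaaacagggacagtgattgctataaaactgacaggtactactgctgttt
Il23r: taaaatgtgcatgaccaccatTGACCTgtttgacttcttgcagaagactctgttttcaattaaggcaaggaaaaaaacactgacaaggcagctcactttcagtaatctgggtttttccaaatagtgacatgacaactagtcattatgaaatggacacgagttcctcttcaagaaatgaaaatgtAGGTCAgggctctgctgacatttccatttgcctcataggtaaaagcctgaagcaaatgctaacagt

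TTCNNNGAA, the gamma-activated site bound by STAT dimers, and the interferon-stimulated response element bound by IRF factors were searched in the same way, each counted without regard to overlap with the other. The gamma-activated site lay in 7.74% of all genes with a window, in 12.3% of those lower in Th17 cells and in 6.67% of those higher. The response element lay in 3.42%, 9.05% and 2.79%. Each motif lay in 5 of the 13 windows of called genes of the interferon-gamma list. Of the windows with a match, Irf1 (the first of its 2 windows, chr11:53769764-53770013) and Gbp7 (chr3:142530086-142530335) are printed. Both genes were lower in Th17 cells, as were all called genes of the list. The windows of Tap1 and Psmb9, of the same list, held neither motif. Irf1 held a gamma-activated site beginning 90 bases before the start. Gbp7 held 2, at 106 and 87 bases, and a response element at 53 bases, on the other strand. GGTGTGA, the half-site of T-box factors, lay in 3.77% of all windows, 3.69% of those of higher genes and 4.83% of those of lower genes. These shares are descriptions of letters: a match is not a binding site, and the gene sets differ in other ways, such as base composition, that were not tested.
Irf1: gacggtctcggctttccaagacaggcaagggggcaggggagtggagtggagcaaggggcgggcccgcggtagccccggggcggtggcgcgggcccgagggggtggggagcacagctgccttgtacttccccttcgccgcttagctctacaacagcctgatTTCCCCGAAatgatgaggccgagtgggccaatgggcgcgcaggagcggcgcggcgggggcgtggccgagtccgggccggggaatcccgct
Gbp7: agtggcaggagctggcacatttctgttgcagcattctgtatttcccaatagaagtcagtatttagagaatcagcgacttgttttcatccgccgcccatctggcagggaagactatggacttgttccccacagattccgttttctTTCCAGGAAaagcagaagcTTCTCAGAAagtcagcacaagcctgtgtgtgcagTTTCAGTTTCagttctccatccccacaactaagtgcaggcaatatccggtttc

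Array medians ran from 6.47 to 6.53 log2 units, and the number of arrays limits the precision. Across genes, the 2 Th1 Tet2-/- arrays correlated at 0.993 and the 2 Th17 Tet2-/- arrays at 0.994, and arrays of these 2 groups at 0.977 to 0.980. The Tet2 probeset read 8.12 and 7.97 in Th1 Tet2-/- and 8.37 and 8.42 in Th17 Tet2-/- cells, beside 8.14 and 8.03 in Th1 and 8.53 and 8.51 in Th17 wild-type cells. Its place relative to the deletion is unknown, so it does not check the genotype. In sex-linked transcripts the Th17 Tet2-/- arrays stand apart from the Th1 Tet2-/- arrays. Xist, expressed from the inactive X of female cells, read 8.62 and 11.3 on the former and 5.01 and 5.00 on the latter. The mean of 3 Y-linked genes read 8.71 and 4.85 against 7.94 and 8.09. Th17 wild-type replicate 2 also read high in Xist, at 10.1, beside a Y-linked mean of 7.82. Xist was low on Th17 wild-type replicate 1 and on both Th1 wild-type arrays. The wild-type contrast and the genotype difference thus also carry uneven Xist levels. Xist and Y-linked genes both read high on Th17 wild-type replicate 2 and Th17 Tet2-/- replicate 1. Whether these samples held cells of both sexes was not tested. Counts are given also without each Tet2-deficient array. Each of these counts still sets high Xist in Th17 cells against low Xist in Th1 cells. Sex-linked differences between the samples and the lineage therefore cannot be told apart in this contrast. Counts are also given after adjustment for the mean of the Y-linked genes. That mean was 7.82 to 8.80 on all arrays but Th17 Tet2-/- replicate 2, so the adjustment follows mostly that array. It does not follow the Xist level of Th17 Tet2-/- replicate 1 and is not a full control for sex. The cultures read as T cells in both groups. The 10 T cell markers measured, Cd4 among them, averaged 10.3 and 10.3 log2 units on the Th1 arrays and 10.4 and 10.3 on the Th17 arrays, and limma called 0 of 10. Markers of CD8 T cells (3 measured), B cells (7), NK cells (6) and myeloid cells (10) had 0 called members, and 22 of these 26 lay below the level of olfactory receptor genes described next. Without Th17 replicate 2, 1 B cell marker was called higher, and without Th1 replicate 2, 2 myeloid markers lower. These are bulk samples, in which fewer cells of a type and less RNA per cell cannot be told apart.

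Limma called 2003 of 19163 genes at an adjusted p under 0.05, which is 10.5% of those tested; 1356 were higher in Th17 cells (7.08%) and 647 lower (3.38%). In each of the 2003 the Th17 arrays did not overlap the Th1 arrays. The calls rest on these same arrays, so the lack of overlap is not a separate check. It was also seen in genes not called, such as Tet2 (8.12 and 7.97 against 8.37 and 8.42). The share of all genes without overlap is not given here. Most differences were small. The median called gene differed 1.53-fold, 277 genes differed at least 2-fold (184 higher, 93 lower), and 5 rose and 5 fell at least 8-fold. The count moved with single arrays: 965 genes were called without Th1 Tet2-/- replicate 1, 1205 without Th1 replicate 2, 780 without Th17 replicate 1 and 1110 without Th17 replicate 2. Adjusted for the Y-linked mean it was 1390.

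The excess of higher over lower calls moved with the level of the gene. Among genes under 7 log2 units the median Th17 minus Th1 difference lay between -0.08 and -0.05 in bins of level, and above 7 it lay between 0.04 and 0.16, while over all genes it was -0.01. Olfactory receptor genes, whose known role is in the nose, show it at the dim end. Of 1021 of them, 159 (15.6%) were called lower in Th17 cells and 1 (0.0979%) higher, with a median of -0.26. Their 95th percentile, 6.94 in Th1 and 6.56 in Th17 Tet2-/- cells, is used below as the level under which a gene is called dim. By that level 9332 of all 19163 genes were dim in both groups, among them 285 of the 647 lower calls and 86 of the 1356 higher calls. Higher genes made up 67.7% of calls as deposited, 62.0% after cyclic loess normalization (1061 higher, 650 lower), 61.7% after quantile normalization (1047 and 649) and 77.6% with dim genes left out (1620 and 468). The part of this shift in any single small difference was not tested.

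**Figure D1:**
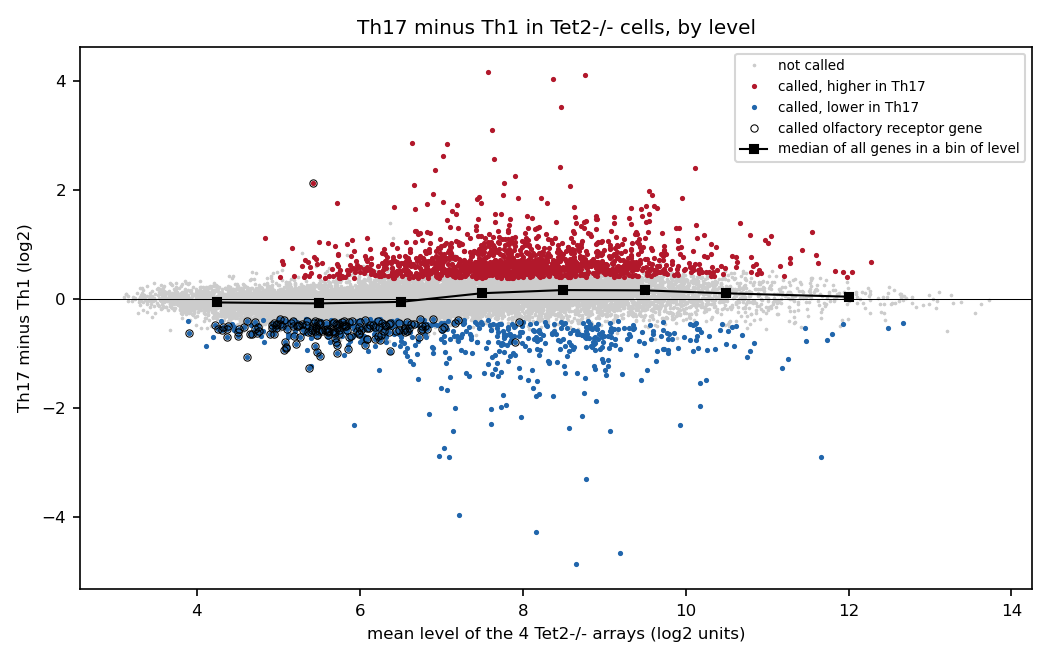
Th17 minus Th1 in Tet2-/- cells (log2, vertical axis) against the mean level of the 4 Tet2-/- arrays (log2 units) for the 19163 autosomal genes, with called genes in colour and called olfactory receptor genes ringed. The black line joins the medians of all genes in bins of level: it lies below 0 at low levels, down to -0.08, and above 0 at high ones, up to 0.16.

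The genes that rose most in Th17 cells were the cytokine and receptor genes of that lineage, and with them several genes outside it. Il23r, the specific subunit of the IL-23 receptor, read 5.67 and 5.31 in Th1 and 9.68 and 9.65 in Th17 cells, an 18.0-fold rise (log2 4.17, SE 0.15, limma adjusted p = 1.15e-08). Il17f read 6.66 and 6.76 in Th1 and 11.01 and 10.61 in Th17 cells, a 17.2-fold rise (log2 4.10, SE 0.16, limma adjusted p = 2.04e-08). Il17a read 6.00 and 6.14 in Th1 and 9.43 and 8.91 in Th17 cells, an 8.56-fold rise (log2 3.10, SE 0.16, limma adjusted p = 2.43e-07). In all 3 genes the Th1 arrays lay in the dim range and the Th17 arrays above it. Folds against a dim group are bounds: set against the dim level in place of the dim reading, Il23r was at least 6.59-fold, Il17f at least 14.6-fold and Il17a at least 4.68-fold higher, so their order by measured fold is not settled. Atp6v0d2, a subunit of the vacuolar proton pump, read 6.45 and 6.27 in Th1 and 10.30 and 10.49 in Th17 cells, a measured 16.4-fold rise that is at least 10.9-fold against the dim level.

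Transcription factors of the Th17 program rose with them. Maf, the factor c-Maf, read 6.51 and 6.91 in Th1 and 10.62 and 9.83 in Th17 cells, an 11.5-fold rise (log2 3.52, SE 0.24, limma adjusted p = 2.09e-06), at least 9.75-fold against the dim level. Rora, which encodes RORα, read 7.20 and 7.29 in Th1 and 9.78 and 9.55 in Th17 cells, a 5.35-fold rise (log2 2.42, SE 0.13, limma adjusted p = 3.99e-07). The other large rises were in genes with no fixed place in the lineage. They were Lum (lumican, a proteoglycan of the extracellular matrix, 2.87), Klk1b22 (a kallikrein, 2.84), Acpp (an acid phosphatase, 2.63), Lpar6 (a receptor for lysophosphatidic acid, 2.56), Emb (embigin, a partner of monocarboxylate transporters, 2.40), Klrb1f (a lectin-like receptor, 2.37), Adam19 (a metalloprotease, 2.26), Olfr60 (an olfactory receptor, dim in both groups, 2.13) and Nebl (nebulette, an actin-binding protein, 2.13), all log2 differences. Klk1b22 read 6.18 and 5.12 in Th1 and 8.57 and 8.41 in Th17 cells, the widest spread among the 15.

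Among the genes that fell most were cytotoxic granule genes and Th1 genes. Nkg7, a membrane protein of cytotoxic granules, read 11.26 and 10.91 in Th1 and 6.16 and 6.26 in Th17 cells, a 29.3-fold fall (log2 -4.87, SE 0.20, limma adjusted p = 2.14e-08). Gzmb, the protease granzyme B, read 11.55 and 11.50 in Th1 and 6.51 and 7.21 in Th17 cells, a 25.4-fold fall (log2 -4.66, SE 0.20, limma adjusted p = 4.02e-08). Ifng read 10.43 and 10.18 in Th1 and 6.00 and 6.06 in Th17 cells, a 19.4-fold fall (log2 -4.28, SE 0.14, limma adjusted p = 3.93e-09). Tbx21, the Th1 lineage factor T-bet, read 10.44 and 10.42 in Th1 and 6.95 and 7.31 in Th17 cells, a 9.85-fold fall (log2 -3.30, SE 0.16, limma adjusted p = 1.06e-07). Nkg7 and Ifng ended in the dim range in Th17 cells, and against the dim level they were at least 23.1-fold and 13.4-fold lower, while the mean of Tbx21 stayed above it.

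Iigp1, an interferon-inducible GTPase that acts against intracellular pathogens, read 8.83 and 9.56 in Th1 and 5.16 and 5.30 in Th17 cells, a measured 15.6-fold fall that is at least 6.22-fold against the dim level. Next came the chemokine gene Ccl3 (-2.91), Dapl1 (-2.90), Serpinb9, an inhibitor of granzyme B (-2.88), Penk, the precursor of enkephalin peptides (-2.73), Plxnc1, a semaphorin receptor (-2.42), the guanylate-binding GTPase gene Gbp4 (-2.42), the chemokine gene Ccl4 (-2.37), Crabp2, a carrier of retinoic acid (-2.31), and the cytokine genes Il3 (-2.31) and Il24 (-2.29), all log2 differences. Ccl3 stayed high in both groups, at 13.29 and 12.93 in Th1 and 10.08 and 10.33 in Th17 cells. Il3 was dim in Th17 cells and at least 1.44-fold lower against the dim level, beside a measured 4.96-fold. In 13 of the 15 largest rises the gene was dim in Th1 cells, and in 9 of the 15 largest falls it was dim in Th17 cells. All 30 remained called without each of the 4 Tet2-deficient arrays, and Klk1b22 was not called under robust moderation.

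**Figure D2:**
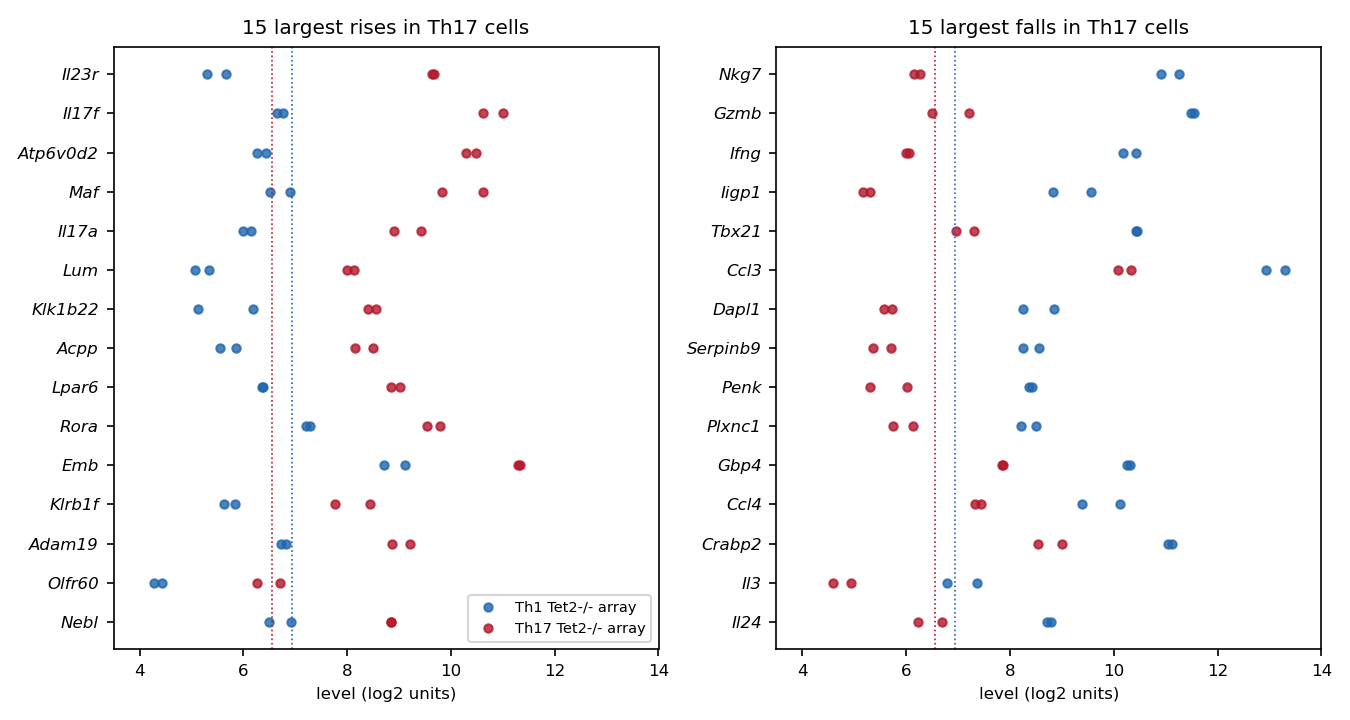
Level (log2 units) on each Tet2-/- array of the 15 genes that rose most and the 15 that fell most in Th17 cells, 2 points per group and gene; the dotted lines are the 95th percentile of olfactory receptor genes, 6.94 in Th1 (blue) and 6.56 in Th17 cells (red). The genes were chosen with no overlap of their groups. Most rises start, and many falls end, left of the dotted lines.

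Of the 31 measured members of the Th17 gene list, 14 were called higher and 2 lower, with a median difference of 0.34 against -0.01 over all genes. Besides the genes above, Ahr, the aryl hydrocarbon receptor, rose 3.63-fold, from 6.96 and 7.06 to 8.92 and 8.82, and Il21, a cytokine that Th17 cells make and respond to, rose 3.59-fold, from 8.78 and 9.28 to 11.02 and 10.73. Ccl20 (0.95) and its receptor Ccr6 (0.91), which guide Th17 cells to epithelia, Tgfb3 (0.76) and the calcitonin-gene-related-peptide receptor subunit Ramp1 were called at smaller log2 differences. Tgfb3 was dim in Th1 cells and at least 1.02-fold higher against the dim level. The 2 lower members were Il24 and Cd9, a tetraspanin. Batf, a factor needed early in the lineage (0.25, limma adjusted p = 0.258), was not called. The count of higher members was 9 to 12 when 1 Tet2-deficient array was left out, lowest without Th17 replicate 1, and 1 lower member was left without either Th17 array or Th1 replicate 2.

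Of the 24 measured Th1 genes, 17 were called lower and 3 higher, with a median of -1.01. Lower members included Ccl5, a chemokine (-1.37), Eomes, a T-box factor (-1.36), Fasl, the death ligand (-1.64), Il12rb2, the inducible IL-12 receptor subunit (-1.27), and Runx3, a partner of T-bet (-0.96). The 3 higher members were Klrd1, the CD94 receptor (1.74), Cxcr6, a chemokine receptor (1.61), and Il18r1, a subunit of the IL-18 receptor (0.88). Klrd1 read 5.92 and 5.99 in Th1 and 7.29 and 8.10 in Th17 cells, and Cxcr6 read 6.19 and 6.46 against 8.44 and 7.44. Stat4, the transducer of IL-12, differed by 0.29 and was not called. Leaving out 1 Tet2-deficient array gave 14 or 15 lower and 2 or 3 higher members.

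**Figure D3:**
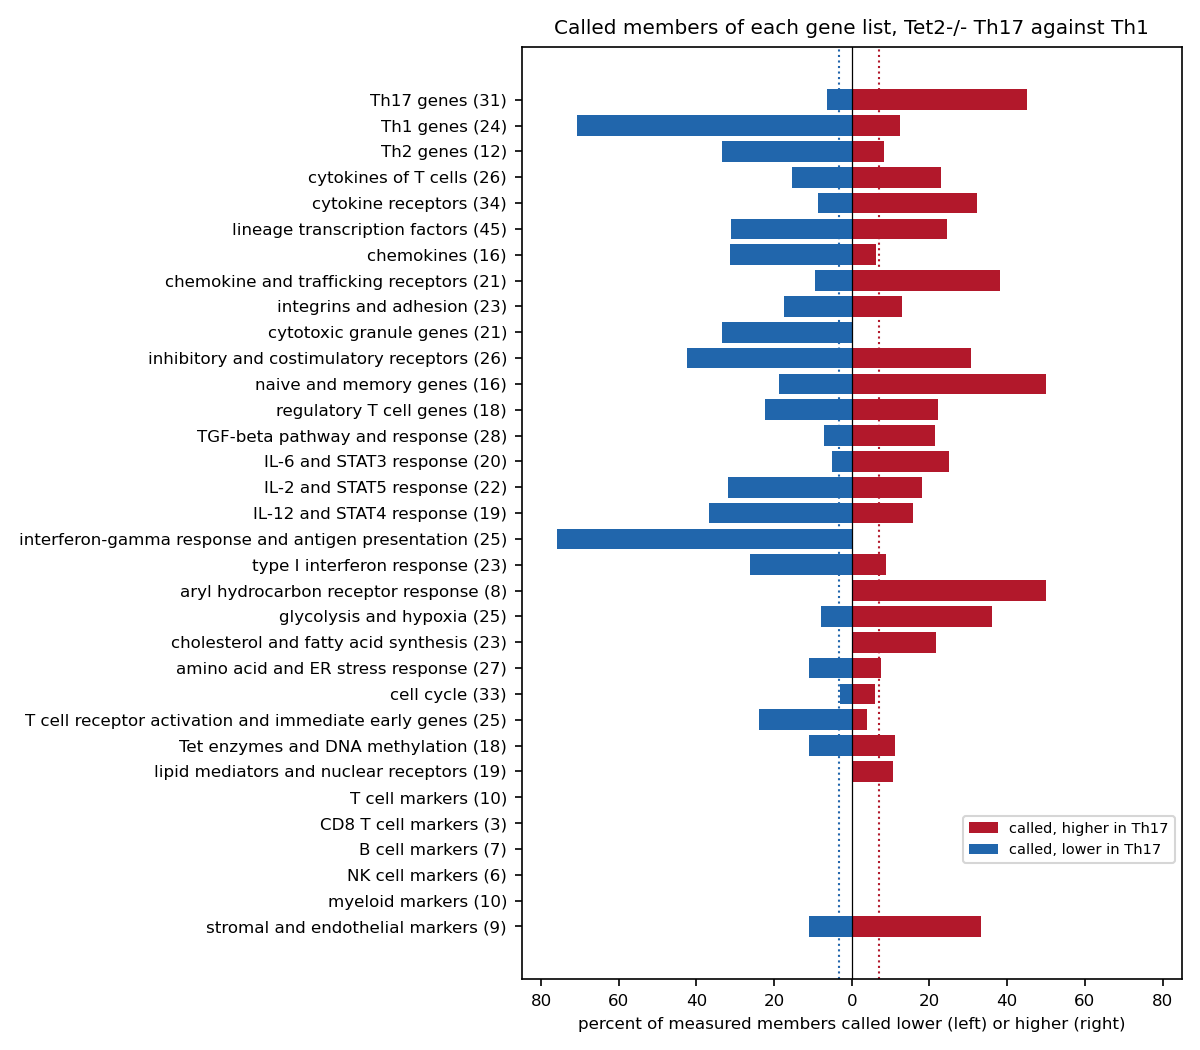
Percent of the measured members of each gene list (number in brackets) called higher (right) or lower (left) in Th17 Tet2-/- cells. The dotted lines are the shares over all 19163 genes, 7.08% higher and 3.38% lower. These include 9332 genes dim in both groups, and of the 9831 others 1270 were called higher and 362 lower. The longest bars to the left are the interferon-gamma response (19 of 25) and the Th1 genes (17 of 24), and those of naive and memory genes (8 of 16) and of the aryl hydrocarbon receptor response (4 of 8) reach farthest to the right.

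The interferon-gamma response and the genes of antigen processing that it controls fell almost as a block: 19 of 25 measured members were called lower and 0 higher, with a median of -0.83. Irf8, a transcription factor induced by IFN-γ, read 11.44 and 10.89 in Th1 and 9.33 and 9.06 in Th17 cells, a 3.93-fold fall. Irf1, another such factor, read 9.61 and 9.62 in Th1 and 7.97 and 7.79 in Th17 cells, a 3.33-fold fall; a dimmer second probeset of Irf1 differed by only -0.15. Gbp7 (-1.79), Irgm1 (-1.46) and Gbp9 (-1.41) are GTPases of cell-autonomous defence. Tap1 (-1.48), the peptide transporter, and Psmb9 (-1.28), a subunit of the immunoproteasome, prepare peptides for MHC class I, and H2-Ab1, Psmb8, Tapbp and B2m were lower too. B2m was not called without any 1 of the 4 Tet2-deficient arrays, and H2-Ab1 and Tapbp without 2 of them. Irf1 and Gbp7 carry the promoter matches printed above. The other 6 members, which include genes of MHC class II presentation and chemokines, were not called. Without 1 Tet2-deficient array, 15 to 18 were called.

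A chain of the IFN-γ receptor moved the other way: Ifngr2 rose 2.59-fold, from 8.72 and 8.56 to 10.15 and 9.87. Ifngr1, the other chain, differed by 0.44 (limma adjusted p = 0.0489) and was not called in 11 of the 20 alternatives, 3 of the 4 left-out Tet2-deficient arrays and both normalizations among them. Of 23 measured genes of the type I interferon response, 6 were called lower and 2 higher. Usp18, which removes ISG15 from proteins, read 8.39 and 8.38 in Th1 and 7.27 and 7.21 in Th17 cells (log2 -1.14), and Zbp1, a nucleic acid sensor, differed by -1.11. Ddx58, the RNA sensor RIG-I (0.70), and Mx1 (0.46) were the 2 higher members. The count of lower members was 3 to 5 without 1 array, lowest at 3 without Th17 replicate 1 and without Th1 replicate 1, and neither higher gene was called without Th17 replicate 2 or without Th1 replicate 2.

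The cytotoxic list held 7 called genes of 21 measured, all lower. Besides Nkg7, Gzmb and Serpinb9 they were Serpinb6b, another serpin of the granule protease family (8.96 and 9.17 in Th1, 6.96 and 6.82 in Th17 cells), Fasl, the death ligand Tnfsf10 (-1.08) and Prf1, perforin (-0.79). No other granzyme gene measured was called; Gzmc, for example, differed by -0.26. Members of such families share sequence, and how far a probeset reads a near relative was not tested.

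Among 26 T cell cytokine genes, 6 were called higher and 4 lower. Ltb, lymphotoxin β, rose 2.04-fold, and Lta, lymphotoxin α of the same complex, read 10.11 and 9.70 in Th1 and 8.98 and 8.77 in Th17 cells, a 2.03-fold fall (log2 -1.02, SE 0.16, limma adjusted p = 0.00116). Il3 read 7.37 and 6.79 in Th1 and 4.95 and 4.60 in Th17 cells. The cytokines Il2 (-0.52, adjusted p = 0.076), Tnf (-0.47, adjusted p = 0.0725), Csf2 (-0.07), Il4 (-0.23) and Il10 (0.09) were not called by limma. Il10 and Il4 were dim in both groups. Tnf passed the threshold in 4 of the 20 alternatives, among them cyclic loess (adjusted p = 0.0333) and quantile normalization (adjusted p = 0.033), and Il2 in 4, among them the Tet2-deficient arrays alone (adjusted p = 0.0326). Il2 read 7.07 and 6.94 in Th1 and 6.66 and 6.32 in Th17 cells, and the 95% interval of its difference was -0.89 to -0.15.

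Of 34 cytokine receptor genes, 11 were called higher and 3 lower. Tgfbr2, a receptor for the TGF-β of the cultures, read 8.15 and 8.09 in Th1 and 9.10 and 8.94 in Th17 cells. Il1r2, the decoy receptor for IL-1 (0.92), Tgfbr3 (0.77), Il7r (0.57) and Il6st, the signalling chain for IL-6 (0.49), were also higher. Il1r2 was dim in Th1 cells and at least 1.09-fold higher against the dim level. Il15ra (-1.30), Il12rb2 (-1.27) and Il12rb1 (-0.55) were the 3 lower ones. Il12rb1 and Il6st were not called without any 1 of the 4 Tet2-deficient arrays. The higher count fell to 4 without Th17 replicate 1, 6 without Th17 replicate 2, 5 without Th1 replicate 1 and 7 without Th1 replicate 2, and after cyclic loess normalization 8 were higher and 5 lower. Of 28 genes of TGF-β signalling 6 were higher and 2 lower. Smad3, which carries the signal to the nucleus, rose 2.88-fold, from 8.81 and 8.58 to 10.31 and 10.15, and its inhibitor Smad7 rose 1.54-fold. Rgs16 and Itgb8, an integrin subunit that activates TGF-β, were lower, at -0.96 and -0.94. The higher count was 3 without Th17 replicate 1 and 3 without Th1 replicate 1, and 1 lower gene was left without Th17 replicate 1, Th17 replicate 2 or Th1 replicate 1; cyclic loess or quantile normalization gave 4 lower genes.

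Among 45 lineage transcription factors, 11 were called higher and 14 lower. Bcl6, the factor of follicular helper cells, read 6.39 and 6.66 in Th1 and 8.50 and 8.31 in Th17 cells, a 3.68-fold rise. Prdm1, which encodes Blimp-1 and represses Bcl6, read 6.73 and 6.74 in Th1 and 5.97 and 6.23 in Th17 cells, a 1.55-fold fall. Both groups of Prdm1 are dim, and its adjusted p reached 0.062 without 1 array. Id2 (1.23), an inhibitor of E proteins, Lef1 (1.31), a factor of naive cells, Ikzf3 (1.42) and Runx1 (0.82) were higher. The orphan receptors Nr4a3 (-1.30) and Nr4a2 (-0.92), induced through the T cell receptor, and Nfil3 (-0.65) were lower, as was Gata3, the Th2 factor (-0.59, limma adjusted p = 0.0336). Gata3 was not called without any single Tet2-deficient array, with limma adjusted p from 0.0691 to 0.246. Without Th17 replicate 1 the list held 7 higher and 9 lower genes.

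Receptors for costimulation and inhibition were divided: of 26 measured, 8 were called higher and 11 lower. Nt5e, the ectoenzyme CD73 that makes adenosine, rose 3.63-fold, from 7.21 and 7.38 to 9.38 and 8.93, and Ctla4 rose 2.26-fold, from 9.94 and 10.46 to 11.53 and 11.21. Lag3, an inhibitory receptor for MHC class II, fell 2.48-fold, from 9.74 and 9.59 to 8.36 and 8.34, and Tigit fell 2.24-fold. Tnfrsf9, the costimulatory receptor 4-1BB (-1.10), Cd200 and Cd274, the ligand PD-L1 (-0.96), were lower. Pdcd1, Havcr2, Tnfrsf18 and Tnfrsf4 were lower too, and Icos, Cd28, Slamf6 and Cd96 higher. Cd28 was not called without any 1 of the 4 Tet2-deficient arrays and Havcr2 without 3 of them. The higher count was 5 without Th17 replicate 1. Cd69 (0.89) was the only called riser among 25 genes of T cell receptor activation, of which 6 were lower, Dusp5 and Egr2 among them; without Th17 replicate 2 those 6 became 2, and Cd69 was not called without Th17 replicate 1, while leaving out either Th1 wild-type array gave 2 risers.

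Of 16 measured genes of naive and memory T cells, 8 were called higher and 3 lower, with a median of 0.55. S1pr1, the receptor by which T cells leave lymphoid tissue, read 8.14 and 8.06 in Th1 and 9.45 and 9.37 in Th17 cells, a 2.48-fold rise. Lef1, Slamf6, Igfbp4, Satb1, Foxo1, Il7r and Bcl2 were the other higher members, and Dapl1, Ccr7 and Actn1 the lower ones. Ccr7, the receptor for lymph node entry, stayed bright in both groups, at 12.09 and 12.16 against 11.52 and 11.43. Only 4 were called higher without Th17 replicate 1 or without Th1 replicate 1, and 1 lower without Th17 replicate 2. Bcl2 was not called without any 1 of the 4 arrays and Foxo1 without 3 of them. Among 21 chemokine and trafficking receptors, 8 were higher and 2 lower. Cxcr4 rose 2.46-fold, from 7.66 and 7.40 to 8.91 and 8.76, and Ccr4 2.26-fold. Without Th17 replicate 2 or without Th1 replicate 2 the 8 became 5, and 1 lower gene was left without either Th17 array. Of 16 chemokines, 5 were lower (Ccl3, Ccl4, Ccl5, Xcl1 and Ccl1) and Ccl20 alone was higher; Ccl20 was not called without Th17 replicate 1 or Th1 replicate 2. Of the 23 integrin and adhesion genes, Itga3 (1.25), Itga6 (1.00) and Itgb7 (0.74) were higher and Itgb8, Icam1, Itgav and Cd9 lower, the latter 4 becoming 2 without Th17 replicate 2.

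Metabolic genes moved in part. Of 25 genes of glycolysis and hypoxia, 9 were called higher and 2 lower, with a median of 0.21. Pdk1, which diverts pyruvate from the mitochondria, read 7.16 and 6.99 in Th1 and 8.18 and 8.45 in Th17 cells, a 2.37-fold rise. Pfkl, a phosphofructokinase (1.11), P4ha1, a collagen prolyl hydroxylase induced by hypoxia (0.98), Bnip3 (0.94) and the lactate exporter Slc16a3 (0.92) were higher, while Hk2, hexokinase 2 (-0.51), and Egln3 (-0.54) were lower. The higher count was 5 without Th1 replicate 1. Both lower calls were lost without either Th17 array or Th1 replicate 1 and with the Y-linked adjustment, and Hk2 also without Th1 replicate 2. Without Th17 wild-type replicate 2, which enters the estimate of the spread, 1 remained. Of 23 genes of sterol and fatty acid synthesis, 5 were higher and 0 lower in Tet2-deficient cells (Dhcr7 0.92, Elovl6 0.78, Msmo1 0.64, Lss 0.61 and Insig1 0.61), against 1 in wild-type cells. The 5 became 2 without Th17 replicate 1 or without Th1 replicate 2. Dgat1, which makes triglyceride, rose 3.16-fold, from 8.36 and 8.63 to 10.13 and 10.18. In the list of aryl hydrocarbon receptor genes, 4 of 8 were higher: Ahr, Tiparp (1.14), the repressor Ahrr (0.76) and the partner Arnt (0.61). Cyp1a1 and Cyp1b1, oxidases induced through the receptor, were dim and not called (0.41 and 0.34), each passing in 1 of the 20 alternatives, and without Th17 replicate 1 the 4 became 2.

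Genes of DNA methylation are given because all 4 arrays are labelled Tet2-/-. Of 18 measured, 2 were called higher (Idh1, which makes the 2-oxoglutarate that Tet enzymes use, 0.64, and the glycosylase gene Mbd4, 0.46) and 2 lower (Gadd45g, -1.36, and Gadd45b, -0.78). The 2 higher calls were lost without Th17 replicate 1, Th17 replicate 2 or Th1 replicate 1, and 1 was left without Th1 replicate 2. Tet1 (0.29, adjusted p = 0.137), Tet3 (-0.20, adjusted p = 0.329) and the Tet2 probeset (0.35, adjusted p = 0.0778) were not called by limma. Gadd45g read 9.18 and 9.23 in Th1 and 7.85 and 7.83 in Th17 cells. The share called was 9.09% in the cell cycle list (2 higher and 1 lower of 33), beside 10.5% of all genes. It was 18.5% for amino acid and endoplasmic reticulum stress (2 and 3 of 27) and 10.5% for nuclear receptors and lipid mediators (2 and 0 of 19). The share over all genes includes the 9332 genes dim in both groups. Of the 9831 others, 1270 were called higher and 362 lower, a larger share. The cell cycle, stress and lipid lists held 0, 1 and 10 members dim in both groups. Each of these lists loses calls in at least 1 direction when an array is left out. After cyclic loess normalization the stress list held 0 higher and 7 lower. In the stress list Atf3, a stress-induced factor, fell 4.42-fold, from 9.76 and 9.84 to 8.01 and 7.30, and remained called without each array. Of the IL-2 and STAT5 list, 4 were higher and 7 lower of 22; of the IL-12 and STAT4 list, 3 and 7 of 19; of the IL-6 and STAT3 list, 5 and 1 of 20; of the regulatory T cell list, 4 and 4 of 18; and of the Th2 list, 1 and 4 of 12. The 4 higher genes of the IL-2 list became 1 or 2 without any 1 Tet2-deficient array and its 7 lower became 4 without Th17 replicate 1. The 3 higher of the IL-12 list became 1 without Th17 replicate 1, the lower gene of the IL-6 list (Pim1) was not called without any 1 of the 4 and the lower count was 4 after cyclic loess normalization, and the 4 lower Th2 genes became 1 or 2 without any 1 of them.

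Lum is also a marker of stromal cells. Among 9 stromal and endothelial markers, Lum, Pecam1 and Dcn were called higher and Sparc lower, while Col1a1 (-0.15), Col1a2 (-0.26) and Kdr (-0.19) were among the 5 not called. Lum read 5.07 and 5.33 in Th1 and 8.13 and 8.00 in Th17 cells, and Dcn, decorin, read 5.33 and 5.34 against 6.11 and 6.58, a dim mean in both groups. The mean of the 9 markers was 6.55 and 6.56 in Th1 and 6.89 and 6.97 in Th17 cells, and 4 of the 9 were lower in Th17 cells. The part of stromal cells in the rise of Lum was not tested.

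The same contrast in wild-type cells, which shares no array with the Tet2-deficient one but shares its estimate of the spread, called 1637 genes (8.54%). Of these, 1020 were called in both genotypes, which is 50.9% of the Tet2-deficient and 62.3% of the wild-type calls. In 1019 of the 1020 the direction was the same, the exception being Pgf, a placental growth factor gene named after its values were seen; Pgf was not called in Tet2-deficient cells without any 1 of their 4 arrays, nor after cyclic loess or quantile normalization. Of the 2003 genes called in Tet2-deficient cells, 1969 (98.3%) had the same sign in wild-type cells, and the differences correlated across all genes at r = 0.811, a description over genes that share arrays. The 983 genes called in Tet2-deficient cells alone are not thereby shown to differ between genotypes: for 190 of them the difference between the contrasts had an unadjusted p under 0.05. All 15 of the largest falls and 14 of the 15 largest rises were called the same way in wild-type cells, Klk1b22 being the exception. Among the 252 genes called in both with at least a 2-fold difference in Tet2-deficient cells, the median ratio of the Tet2-deficient to the wild-type log2 difference was 1.13; these genes were chosen on the Tet2-deficient values, which favours a ratio above 1.

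**Figure D4:**
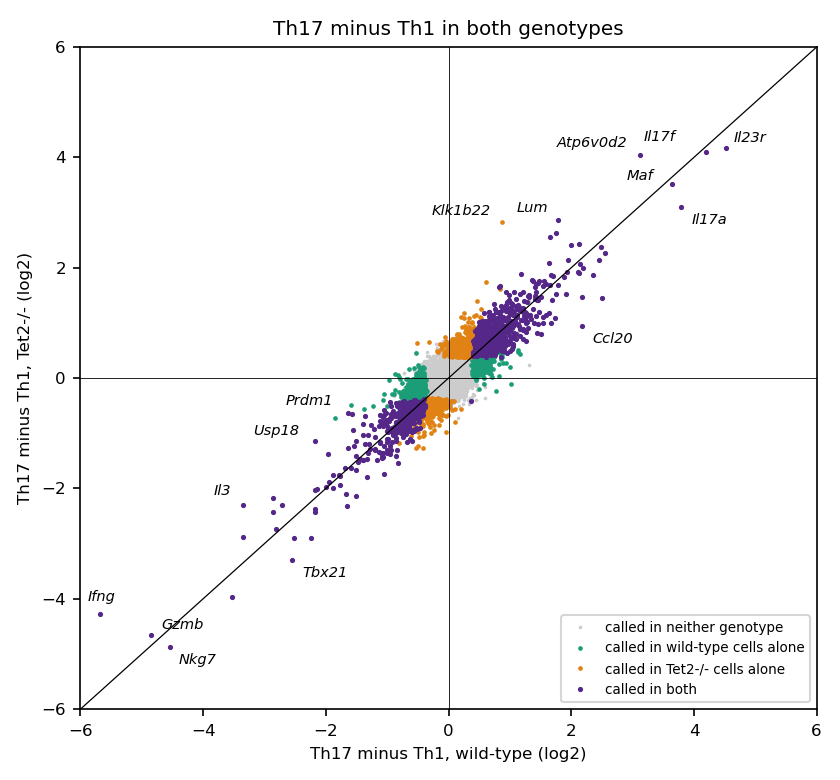
Th17 minus Th1 (log2) in Tet2-/- cells (vertical axis) against wild-type cells (horizontal axis) for the 19163 genes, coloured by where limma called them, with the line of equal values. Of the 1020 genes called in both, 1019 have the same sign in both genotypes; Ifng (-4.28 against -5.68) and Ccl20 (0.95 against 2.18) lie closer to 0 in Tet2-/- cells, and Atp6v0d2 (4.04 against 3.13) farther from it.

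The test of the difference itself, Th17 minus Th1 in Tet2-deficient cells minus the same in wild-type cells, called 0 of 19163 genes (0%) with limma; 874 had an unadjusted p under 0.05, which is 4.56% of the genes, and the smallest adjusted p was 0.15. Without Th17 Tet2-/- replicate 1 it called 2. Ifng had the smallest p. Wild-type Th1 arrays read 11.56 and 11.89, above the 10.43 and 10.18 of Th1 Tet2-/- arrays, while wild-type Th17 arrays read 6.07 and 6.01 beside 6.00 and 6.06. Its Th17 minus Th1 difference was thus -5.68 with Tet2 and -4.28 without it, with a genotype difference of 1.41 (SE 0.20, limma adjusted p = 0.15). The gap lay in the Th1 arrays, since Ifng was dim in all Th17 arrays.

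The differences of Usp18, Prdm1 and Il3 were also closer to 0 in Tet2-deficient cells. Usp18 differed between the contrasts by 1.03 (SE 0.16, limma adjusted p = 0.194), with Th1 values of 8.80 and 8.95 in wild-type cells above the 8.39 and 8.38 of Tet2-deficient cells, and Th17 values of 6.66 and 6.75 below 7.27 and 7.21. Prdm1 differed by 1.01 (SE 0.16, limma adjusted p = 0.194), with 7.48 and 7.53 in wild-type Th1 cells. Il3 differed by 1.04 (limma adjusted p = 0.823), from 8.13 and 8.30 in wild-type Th1 cells. The remaining 5 of the 8 largest positive genotype differences, Klk1b22 (1.97), Mctp2 (1.16), Klrd1 (1.13), Zfp600 (1.10) and Lum (1.08), had limma adjusted p from 0.306 to 0.999. A positive value is not always a smaller contrast. Lum and Klk1b22 lay farther from 0 in Tet2-deficient cells (2.87 and 2.84) than in wild-type cells (1.78 and 0.87). Klk1b22 read 7.65 and 5.87 on the 2 wild-type Th17 arrays. Lum reached 6.98 and 7.10 in wild-type Th17 cells, below both Tet2-deficient arrays.

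In the other direction, Ccl20 read 9.09 and 8.96 in wild-type and 8.27 and 7.75 in Tet2-deficient Th17 cells, beside 6.72 and 6.97 and 7.25 and 6.88 in the matching Th1 cells. Its genotype difference was -1.23 (SE 0.25, limma adjusted p = 0.548). Mapkapk3, a kinase downstream of p38, differed by -1.12 and Parp3, an ADP-ribosyltransferase, by -1.01; both had Th17 minus Th1 differences above 0 in wild-type cells (1.02 and 0.78) and near 0 in Tet2-deficient cells (-0.11 and -0.23). Slc6a9, Olfr1166, Oaz2, Olfr399 and Gucy1b1 followed, between -0.94 and -0.79. None of these 16 genes passed the test on all 8 arrays. Without Th17 Tet2-/- replicate 1 the genotype difference of Klrd1 was larger, at 1.54. Of the lineage cytokines, Il17a stood at 3.10 in Tet2-deficient and 3.78 in wild-type cells, with Th17 values of 9.43 and 8.91 against 9.81 and 9.85 (genotype difference -0.69, SE 0.23, limma adjusted p = 0.999), and Il17f at 4.10 and 4.19. Some lists lay to 1 side in this difference, with no test: it was above 0 in 31 of 33 cell cycle genes (median 0.37) and in 21 of 23 genes of sterol and fatty acid synthesis (median 0.31). It was above 0 in 1 of 25 genes of T cell receptor activation (median -0.22), 3 of 22 of the IL-2 list (median -0.25) and 3 of 27 of the stress list (median -0.19), against 52.2% of all genes and a median of 0.01. Centring, cyclic loess and quantile normalization moved these counts by at most 1. These genotype counts of lists were not repeated with single arrays left out. The mean level of the cell cycle genes was 8.35 and 8.42 in Th1 and 8.32 and 8.72 in Th17 Tet2-deficient cells, highest on Th17 replicate 2. Their median Th17 minus Th1 difference was 0.12 in Tet2-deficient and -0.20 in wild-type cells, so the genotype difference drew on both contrasts.

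**Figure D5:**
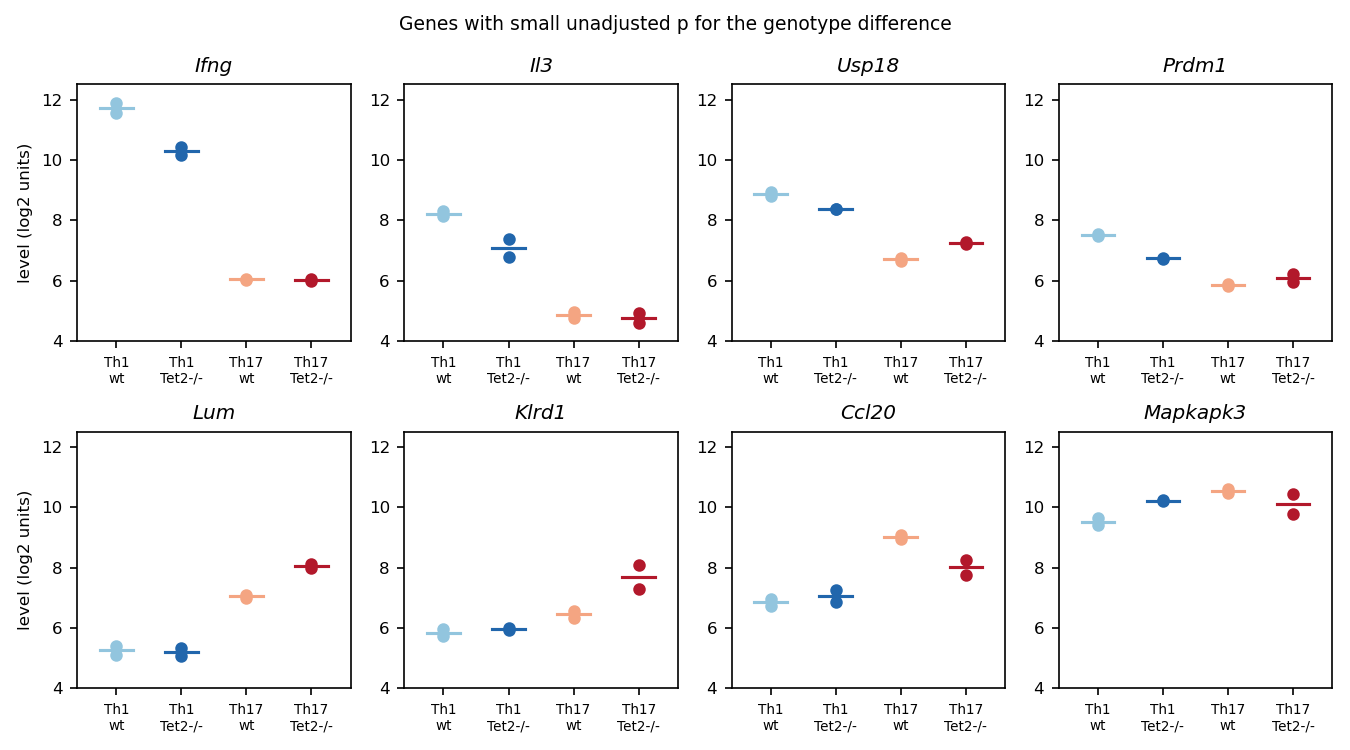
Level (log2 units) on each of the 8 arrays for 8 genes with a small unadjusted p for the genotype difference, none of which passed the adjusted test; points are arrays and bars the mean of 2. Ifng, Il3 and Prdm1 are lower in Tet2-/- than in wild-type Th1 arrays, and Ccl20 is lower in Tet2-/- than in wild-type Th17 arrays.

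Position on the chromosome, which played no part in the choice of genes, was described next. Of the 1356 genes called higher, 337 (24.9%) had a neighbour in gene order that was also called higher, against 13.5% of all genes; of the 647 called lower, 142 (21.9%) had a neighbour called lower, against 6.38%. Neighbours that are dim, or copies of each other, share their readings, and their part was not tested. There were 260 runs of adjacent called genes, of which 147 were higher throughout, 60 lower throughout and 53 mixed, with at most 5 genes. On chromosome 1 the pair Il17a and Il17f rose together. On chromosome 5 Gbp8 (-1.95), Gbp9 (-1.41), Gbp4 (-2.42) and Gbp11 (-1.28) fell as a run of 4, on chromosome 11 the pair Ccl3 and Ccl4, and on chromosome 19 the membrane protein genes Ms4a4a (-1.67), Ms4a4c (-1.98) and Ms4a4b (-1.75). On chromosome 14 a run of 5 was higher, with Lpar6 (2.56) beside the cell cycle regulator gene Rb1 (1.07), Rcbtb2 (0.72), Mir687 (1.04) and Itm2b (0.48). Itm2b was not called after cyclic loess (0.35) or quantile normalization (0.36), nor without any 1 of the 4 Tet2-deficient arrays. Rcbtb2 was not called without Th17 replicate 1 or Th1 replicate 2, so the run of 5 depends on the setting. On chromosome 6 the neighbours Il12rb2 and Il23r moved in opposite directions: Il12rb2 read 11.71 and 11.92 in Th1 and 10.53 and 10.56 in Th17 cells while Il23r rose 18.0-fold. The other 2 of the 8 largest runs were Iigp1 with 3 predicted genes on chromosome 18 and Nkg7 with Cldnd2 (-0.96) on chromosome 7.

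Genes read by several probesets gave further readings from the same arrays. They can check a probeset but not the difference between the groups. Among called genes with more than 1 probeset (114), 237 of 255 other probesets (92.9%) had the sign of the one used, against 72.3% of 1518 for genes not called. For called genes that differed at least 2-fold it was 17 of 19. Cdkn1b, which encodes the cell cycle inhibitor p27 and was named after its values were seen, read 1.43 and 2.11 on its 2 probesets, Nebl 2.13 and 0.98, and Bnip3 0.94 and 0.53.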

How the data were processed

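Total RNA was labelled with biotin and hybridised to Affymetrix arrays, 1 array per sample and 2 per group. The authors deposited log2 expression values per probeset, for which the submitters' processing notes name Partek and RMA without versions. Settings and genome build are not stated, and base 2 was inferred from how far the values reach. Probesets were named through GEO's platform annotation, and only those with 1 gene symbol were used. Group means over all 8 arrays were fitted with limma 3.58.1 in R 4.3.3 (lmFit, eBayes with an intensity trend, 4 residual degrees of freedom). P-values are two-sided and were adjusted with Benjamini-Hochberg over 19938 genes; genes with an adjusted p under 0.05 are named called. The script was tested on simulated data. No counts underlie arrays, so depth is limited only by their number.

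Genes were named by rule: the 15 largest called rises and falls without overlap, the 8 largest genotype differences in each direction with unadjusted p under 0.01, up to 8 members per list by p, a fixed panel, and the 8 largest runs of neighbours, without predicted and small RNA genes in the first 2. Other list members and neighbours were named after their values were seen. The members and lists were chosen with earlier results of these data known, so list counts have no test. The 20 alternatives included other normalizations, left-out arrays and a replicate block; cyclic loess was chosen after seeing the data. Il22, Foxp3 and Cxcr3 were not analysed here.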

Additional observations from a re-analysis of the deposited data

How the results depend on the processing

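Leaving out 1 of the 8 arrays gave 780 to 2295 called genes in Tet2-deficient cells, 650 to 1513 in wild-type cells and 0 to 2 for the genotype difference, against 2003, 1637 and 0; the lowest counts came without Th17 Tet2-/- replicate 1 and without Th17 wild-type replicate 2. Without Th1 wild-type replicate 1 the wild-type count was 985. Requiring also a log2 difference of at least 1 left 277. The other settings kept the Tet2-deficient count within 1.5 times: 1711 after cyclic loess, 1696 after quantile normalization, 2193 with arrays centred on their medians, 1390 adjusted for the Y-linked mean and 2400 from the Tet2-deficient arrays alone. With the replicate block it was 1744 and the genotype difference called 0. Between groups, the deviations of same-numbered arrays from their group means correlated at -0.193 to 0.0614. With 2 arrays a group this cannot settle whether the numbers pair samples. Of 167 called genes named, 112 remained called in every alternative that gave a value and none changed sign; 188 of 3330 values missed the threshold. Without any 1 of the 4 Tet2-deficient arrays, 12 of them were not called: Arnt, B2m, Bcl2, Cd28, Gata3, Hk2, Idh1, Il12rb1, Il6st, Itm2b, Pgf and Pim1. Further, 4 genes that were not called changed sign: Csf2 ran from -0.22 to 0.0729 without 1 array, Gucy1b1 from -0.0164 to 0.0813, Mapkapk3 from -0.43 to 0.21 and Parp3 from -0.51 to 0.0534, and with the Y-linked adjustment Gucy1b1 was -0.0140 and Mapkapk3 0.0669. Uncalled values passed the threshold in 14 cases: Il2 and Tnf in 4 alternatives each, Olfr399 in 3, and Cyp1a1, Cyp1b1 and Zfp600 in 1 each. The cause was not tested. With 2 arrays a group, differences among dim genes are limited by signal over background.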

Other observations

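Further genes outside the lists rose in Th17 Tet2-/- cells and were picked after their values were seen, so nothing is read from them as a group. Ccng2, cyclin G2, rose by 1.56 on the log2 scale and Cdkn1b by 1.43. Txnip, which limits glucose uptake, read 9.46 and 9.44 in Th1 and 10.89 and 10.74 in Th17 cells. Pdcd4, an inhibitor of translation, rose by 1.43, and the stress-induced genes Sesn3 and Sesn1 by 1.39 and 1.06. Each had an adjusted p under 0.05 with limma.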
